A study of Homo sapiens with 18 samples.

Results

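Raji cells exposed to TPCK were set directly against Raji cells exposed to Bay-11, with no untreated sample in the contrast. Raji is a human Burkitt lymphoma line, a fast-growing germinal centre B cell tumour carrying Epstein-Barr virus. The study put Raji and a second Burkitt line, DG75, through network analysis of NF-kB after both inhibitors, and its title places NF-kB in a form of apoptosis that does not need caspases. The 6 arrays of the contrast, of 18 in the series, are 3 of Raji given 75 µM TPCK for 1 h (arrays 1, 2 and 3) and 3 of Raji given 50 µM Bay-11 for 1 h (arrays 4, 5 and 6). The members are all 10697 genes with a measured probe. The other groups were untreated Raji (arrays 16, 17 and 18), DG75 with 50 µM Bay-11, DG75 with 75 µM TPCK and untreated DG75, 3 arrays each, all with the same 1 h label. The doses differ between the compounds, so compound and dose cannot be told apart in anything below. Both lines are single established cultures, and nothing in the labels says whether replicates came from separate cultures, so the p-values measure the spread between these arrays, which may be technical.

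NF-kB is a family of transcription factors held in the cytoplasm by IkB proteins. The IKK kinase complex marks IkB for destruction, NF-kB enters the nucleus, and it switches on cytokine, survival and feedback genes, among them the gene of IkB-alpha itself. Bay-11 and TPCK are small molecules that are used to block this route, and both react with cysteine side chains of many proteins besides NF-kB. Small nucleolar RNAs were 12 of the 16 named genes called lower after TPCK in the main fit described below. They guide chemical modification of ribosomal RNA, with box C/D RNAs directing methylation and H/ACA RNAs directing pseudouridine. In vertebrates nearly all of them are cut out of the introns of other genes, many of them ribosomal protein genes.

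Levels are log2 bead signals after background correction and quantile normalization, and a difference is the mean of the 3 TPCK arrays minus the mean of the 3 Bay-11 arrays. The mean raw signal was 243, 274 and 282 on the TPCK arrays and 256, 226 and 206 on the Bay-11 arrays, a difference that did not pass an exact permutation test (two-sided p = 0.2, the smallest that 3 against 3 allows being 0.1). Between 13994 and 15711 probes were detected on a TPCK array and between 14459 and 14946 on a Bay-11 array. Across genes the levels of arrays correlated with 0.991 to 0.992 within TPCK, 0.988 to 0.991 within Bay-11 and 0.978 to 0.992 between them. The B cell markers CD79A, CD79B, MS4A1, CD74, CD22 and BLK and the germinal centre markers BCL6, MME and CD38 were detected on 6 of 6 arrays. Of 8 fibroblast and epithelial markers 6 were undetected on the arrays of both groups. Other markers of non-B cells did reach detection on at least 1 array. All 4 myeloid markers and the 1 T cell marker with a probe were detected in both groups. Of 3 erythroid markers with a probe, 1 was detected with TPCK and 2 with Bay-11.

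A gene is called when its adjusted p is under 0.05 in limma's moderated test with Benjamini-Hochberg adjustment over all genes. Of the 10697 genes 29 were called, which is 0.271%. TPCK was higher for 13 of them (0.122%) and lower for 16 (0.15%). At an unadjusted p under 0.05 there were 1436 genes (13.4%). All 29 called genes had TPCK and Bay-11 arrays that did not overlap, as did 2757 genes in all (25.8%, with 12.9% in each direction), and 16 of the 29 differed by more than 1 log2 unit. Of the 16 genes lower after TPCK, 12 were small nucleolar RNAs. The deposited processed values of the same 6 samples carry replicate numbers and cover 8379 of these genes. Of the 29, H3C10, RNASE10, SNORD54 and SNORD73A are not covered, so their calls could not recur there. Without pairing 50 genes were called on the deposited values (8 higher, 42 lower), 16 of which were among the 29. With the replicate number as a block 283 were called (105 higher, 178 lower), 25 of which were among the 29. That pairing was taken from the same values, not from the labels. Adjusted p-values with the replicate block, quoted below for single genes, therefore rest on that choice and are not a separate test. Counts with the replicate block below are to be read against 105 higher and 178 lower of 8379 genes. Leaving out array 1 or array 6 left 7 calls each, leaving out array 4 left 13 and leaving out array 2 left 18. The count also rested on the scaling: median centring gave 5 genes higher and 3 lower, and no normalization between arrays gave 1 higher and 2 lower.

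Within the 29 genes, the direction relative to untreated Raji took more than 1 form. Both treatments were compared with the same 3 untreated arrays, so their values against control are given side by side and are not independent. In the same fit 47 genes (0.439%) were called between TPCK and untreated Raji and 161 (1.51%) between Bay-11 and untreated Raji.

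**Figure D1:**
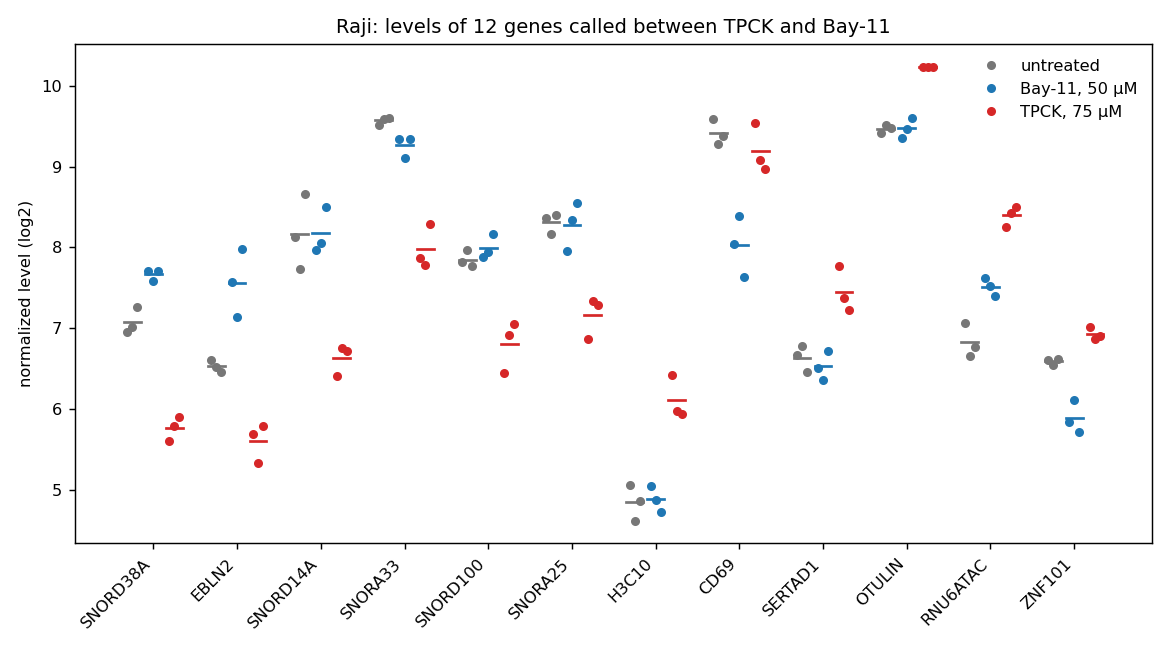
Normalized log2 level (vertical axis) of 12 called genes on the 3 untreated (grey), 3 Bay-11 (blue) and 3 TPCK (red) Raji arrays; each point is 1 array and each short line a group mean. SNORD14A, SNORA33, SNORD100 and SNORA25 are low on the TPCK arrays with Bay-11 close to the untreated arrays, SNORD38A and EBLN2 lie on opposite sides of the untreated arrays, and CD69 is low on the Bay-11 arrays. H3C10 was not detected on any untreated array.

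SNORD38A, a box C/D RNA, had the smallest adjusted p of all genes tested. Its level was 5.60, 5.79 and 5.90 on the TPCK arrays and 7.71, 7.58 and 7.71 on the Bay-11 arrays. All TPCK arrays lay below the untreated arrays, at 6.96, 7.01 and 7.26, and all Bay-11 arrays lay above them. TPCK minus Bay-11 was -1.90 ± 0.13 (SE, n = 3 per group; limma adjusted p = 6.11e-07), a 3.74-fold lower level. Against control TPCK was -1.31 (limma adjusted p = 4.91e-05) and Bay-11 was 0.59 (limma adjusted p = 0.0351). It was called in all 19 alternatives tried.

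SNORD14A, SNORD14B and SNORD14D are copies of U14, the box C/D RNA that is needed in yeast for cutting the ribosomal RNA precursor as well as for its methylation. SNORD14A, in an intron of the ribosomal protein gene RPS13, read 6.40, 6.75 and 6.72 with TPCK and 7.96, 8.05 and 8.50 with Bay-11. The groups did not overlap, and the Bay-11 arrays lay among the untreated ones, at 8.12, 7.73 and 8.66. The difference was -1.55 ± 0.23 (SE, n = 3 per group; limma adjusted p = 0.00654), with -1.55 against control for TPCK and 0.0038 for Bay-11. SNORD14D, contained in HSPA8, the gene of the constitutive Hsp70 chaperone, read 5.83, 5.27 and 5.61 with TPCK and 7.32, 7.26 and 7.06 with Bay-11. That gave -1.64 ± 0.29 (SE, n = 3 per group; limma adjusted p = 0.0204). SNORD14B, named after its values were seen, differed by -0.82 ± 0.15 (SE, n = 3 per group; limma adjusted p = 0.0291). The copies are alike in sequence and probe sequences were not used here, so the signal of 1 copy may include another. SNORD14A lost its call without array 1 or array 6 (adjusted p up to 0.0579), and SNORD14D lost it when any 1 of the 6 arrays was left out (up to 0.122). The estimate of spread is shared over all 18 arrays, and SNORD14D read 4.83, 6.33 and 6.33 on DG75 Bay-11 arrays 10, 11 and 12. Without DG75 arrays 7 and 10 its limma adjusted p in Raji was 4.43e-05, and under median centring it was 0.112.

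SNORD54, contained in RPS20, was detected on all 3 Bay-11 arrays and on none of the TPCK arrays. Its measured levels were 4.86, 4.68 and 4.45 with TPCK and 6.12, 5.71 and 6.12 with Bay-11. As the TPCK value is only a bound, its level was at least 2.09-fold lower after TPCK (limma adjusted p = 0.00463). SNORD73A, contained in RPS3A, read 4.91, 5.11 and 5.30 with TPCK, where 2 of 3 arrays detected it, and 6.46, 6.10 and 6.67 with Bay-11. Its difference was -1.30 ± 0.18 (SE, n = 3 per group; limma adjusted p = 0.00463). SNORD54 and SNORD73A kept their calls when each of the 6 arrays was left out in turn, with adjusted p up to 0.0397 and 0.0417. SNORD100, contained in RPS12, read 6.44, 6.91 and 7.05 with TPCK and 7.88, 7.95 and 8.16 with Bay-11, a difference of -1.20 ± 0.18 (SE, n = 3 per group; limma adjusted p = 0.00654). Without array 1 or array 6 its adjusted p was up to 0.0579. SNORD21, contained in RPL5 and named after its values were seen, differed by -0.98 ± 0.18 (SE, n = 3 per group; limma adjusted p = 0.0316).

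The called H/ACA RNAs were SNORA33, SNORA32, SNORA25 and SNORA10. SNORA33 shares RPS12 with SNORD100. It read 7.87, 7.78 and 8.29 on the TPCK arrays, 9.34, 9.11 and 9.34 on the Bay-11 arrays and 9.52, 9.59 and 9.61 on the untreated arrays. TPCK was below both other groups on every array, and the difference from Bay-11 was -1.29 ± 0.13 (SE, n = 3 per group; limma adjusted p = 0.000187). SNORA32 and SNORA25 both lie within TAF1D, a gene for a subunit of the factor that places RNA polymerase I on ribosomal DNA. SNORA32 read 6.0, 6.30 and 6.77 with TPCK and 7.36, 7.70 and 8.05 with Bay-11. SNORA25 read 6.87, 7.34 and 7.28 with TPCK and 7.96, 8.33 and 8.54 with Bay-11. Their differences were -1.35 ± 0.24 and -1.12 ± 0.18 (SE, n = 3 per group; limma adjusted p = 0.0223 and 0.00882). SNORA33 kept its call without each array in turn, while SNORA32 lost it without array 1, 2, 5 or 6 (up to 0.189) and SNORA25 without array 1 or 6 (up to 0.0844). SNORA10, contained in RPS2, stood just inside the threshold with -0.80 ± 0.16 (SE, n = 3 per group; limma adjusted p = 0.0475) and lost its call without any 1 of the 6 arrays (up to 0.324).

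Over the whole class, 36 box C/D RNAs and 11 H/ACA or Cajal body RNAs were measured. Of the box C/D RNAs 0 were called higher and 8 lower (22.2%, against 0.15% called lower over all genes), and 28 were not called. Their median difference was -0.63, beside 0.0094 for all genes, and 30 of 36 were below 0. TPCK was lower without overlap for 26 of 36 (12.9% over all genes). Of the H/ACA and Cajal body RNAs 0 were called higher and 4 lower, with a median of -0.64 and 10 of 11 below 0. The members ranged from SNORD38A at -1.90 to SNORA64 at 0.60, so the members were spread over both sides of 0. Against control the box C/D median was -0.42 for TPCK and 0.21 for Bay-11, and the H/ACA median was -0.46 and -0.007. Leaving out array 1 or 6 left 3 box C/D and 1 H/ACA calls, leaving out array 2 left 5 and 2, leaving out array 4 left 5 box C/D calls and leaving out array 5 left 2 H/ACA calls. Median centring, which moved the median of all genes to 0.16, left 2 box C/D and 0 H/ACA calls, and no normalization, which moved it to 0.22, left 1 and 0. Other fits called more, all lower: 15 box C/D and 5 H/ACA on the 9 Raji arrays alone, and 13 and 5 without DG75 arrays 7 and 10. Array weights gave 21 and 7. The fit on the 6 compared arrays alone called 10 box C/D but only 1 H/ACA RNA. On the deposited values, which held 31 box C/D and 10 H/ACA genes, the calls were 16 and 4 over all samples, 9 and 3 over the 6 samples without a block and 18 and 5 with the replicate block. In all 3 scalings 30 of the 36 box C/D RNAs and 10 of the 11 H/ACA or Cajal body RNAs lay below the median of all genes. How the labelling reaction took up RNAs without a poly(A) tail is not stated in the labels, so these signals cannot be assigned to mature small RNA rather than to longer transcripts that contain it.

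By gene position 45 of the 47 small RNAs lie inside another gene, 33 of them inside a ribosomal protein gene. Of the 12 called, 9 lie in a ribosomal protein gene. Of 24 containing genes 18 were measured, 0 were called, and their differences ran from -0.17 to 0.18 with a median of 0.041. RPS12, which holds SNORA33, SNORD100 and SNORD101, differed by -0.047, and RPS13, which holds SNORD14A and SNORD14B, by 0.012. Among all 75 cytosolic ribosomal protein genes measured 0 were called, the median was -0.004 and the range was -0.33 to 0.23. SNORD46, a box C/D RNA, was high in both treated groups, at 7.51, 7.61 and 7.89 with TPCK and 8.18, 8.12 and 8.42 with Bay-11 against 6.39, 6.12 and 6.04 untreated, and its difference between treatments was not called (limma adjusted p = 0.163, and 0.0439 with the replicate block).

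**Figure D2:**
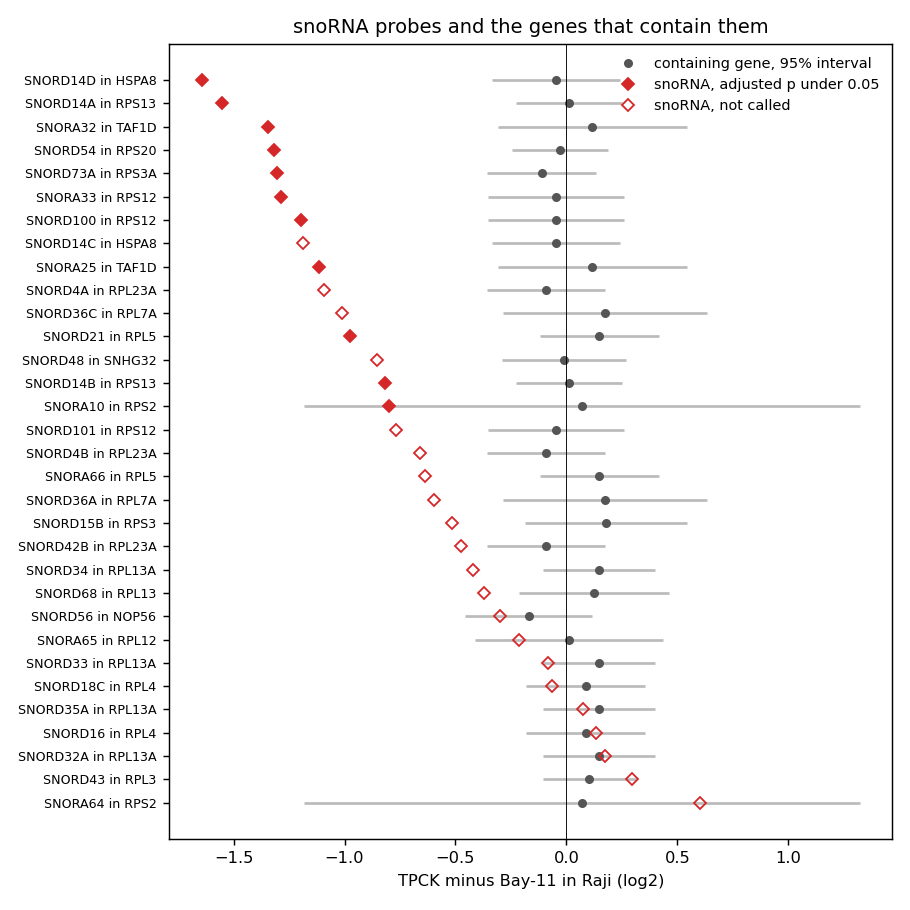
TPCK minus Bay-11 in Raji (horizontal axis, log2) for each small nucleolar RNA whose containing gene was measured (diamonds, filled where the adjusted p is under 0.05) and for that containing gene (circles with 95% intervals). The containing genes lie between -0.17 and 0.18, while the diamonds run from -1.64 to 0.60; the interval for RPS2 is wide.

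The annotated start sites of the containing genes are shown because many genes of the translation machinery begin with a C and a run of pyrimidines, the terminal oligopyrimidine motif. Of the 9 genes that contain a called small RNA, the 5 shown had a RefSeq entry (GRCh38.p14) in the sources used here. Genes on 1 chromosome were left out whatever their entry. Each line gives 20 bases before the start in lower case and the first 10 transcribed bases in capitals, 5′ to 3′ on the strand of the gene.
RPS13 (chr11:17077658-17077687, minus strand): ggcgtttccactctcgctctCCTTTCGTTG
RPS12 (chr6:132814549-132814578, plus strand): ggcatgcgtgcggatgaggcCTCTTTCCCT
RPS3A (chr4:151099608-151099637, plus strand): tcgcgcgactcccacttccgCCCTTTTGGC
TAF1D (chr11:93741486-93741515, minus strand): gggccacggaaatagccaacCCTTTTCTTC
HSPA8 (chr11:123062127-123062156, minus strand): ggtggcgggcggaaaccggtCTCATTGAAC
A start at C followed by 4 bases that are each C or T was found in 4 of the 5, the exception being HSPA8. The same start is held by 1104 of 27305 RefSeq windows, 1 per gene symbol (4.04%), and by 44 of 70 ribosomal protein windows (62.9%). These are matches of letters at annotated starts and say nothing of the small RNAs themselves.

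EBLN2, a gene derived from an ancient bornavirus insertion and lying within PPP4R2, had the most negative difference of all genes. It read 5.69, 5.33 and 5.78 on the TPCK arrays and 7.57, 7.14 and 7.98 on the Bay-11 arrays. The untreated arrays, at 6.60, 6.52 and 6.46, lay between the treated groups without overlap. The difference was -1.96 ± 0.27 (SE, n = 3 per group; limma adjusted p = 0.00463), a 3.89-fold lower level, and the gene was called in all 19 alternatives. Neither treatment was called against control (TPCK -0.92, limma adjusted p = 0.289; Bay-11 1.04, limma adjusted p = 0.0712). Its containing gene PPP4R2, a regulatory subunit of protein phosphatase 4, was not called at 0.23 ± 0.24 (SE, n = 3 per group; limma adjusted p = 0.714).

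KLHL17 encodes a kelch-repeat adaptor of a cullin ubiquitin ligase. It read 5.27, 5.56 and 5.74 with TPCK, overlapping with the untreated 5.20, 5.48 and 5.70, and 6.75, 6.29 and 7.01 with Bay-11. The difference of -1.16 ± 0.22 (SE, n = 3 per group; limma adjusted p = 0.0316) thus sat beside 0.060 against control for TPCK and 1.22 for Bay-11. Its call was lost without array 1, 2, 4 or 6 (adjusted p up to 0.239). The other 2 genes called lower, named after their values were seen, were NEDD4L, a ubiquitin ligase of membrane proteins, at -0.81 ± 0.15 and UAP1L1 at -0.82 ± 0.15 (SE, n = 3 per group; limma adjusted p = 0.0316 for both). A second kept UAP1L1 probe differed by -0.48.

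Among the 13 genes higher after TPCK, H3C10 had the largest difference. It is 1 of the many copies of histone H3, whose messages are made for DNA replication and end in a stem-loop in place of a poly(A) tail. H3C10 read 6.42, 5.97 and 5.94 with TPCK and 5.05, 4.87 and 4.72 with Bay-11, where 1 of 3 arrays detected it. None of the untreated arrays detected it. The difference was 1.23 ± 0.18 (SE, n = 3 per group; limma adjusted p = 0.00654). Without array 1 or array 6 the adjusted p was up to 0.0579. Of the 34 replication-dependent histone genes measured it was the only one called, and 33 were not. With the replicate block 3 of 18 histone genes measured in the deposited values were called higher and 0 lower. The list had a median of 0.24, 27 of 34 above 0 and 12 of 34 not overlapping and higher (12.9% over all genes). In DG75 the list's median was -0.070 with 14 of 34 above 0, close to all genes there (-0.051, with 4449 of 10697 above 0). In Raji 5521 of all 10697 genes lay above 0.

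The 250 bases before the annotated start of H3C10 (RefSeq, GRCh38.p14, chr6:27809801-27810050, plus strand) are shown because it is the called gene whose class carries well-known promoter letters, with CCAAT and TATAAA in capitals.
H3C10: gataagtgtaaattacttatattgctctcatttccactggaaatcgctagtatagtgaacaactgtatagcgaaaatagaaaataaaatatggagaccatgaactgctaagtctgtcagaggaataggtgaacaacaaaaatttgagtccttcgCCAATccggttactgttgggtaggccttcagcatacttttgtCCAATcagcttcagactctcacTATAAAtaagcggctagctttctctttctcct
CCAAT begins 96 and 54 bases before the start and TATAAA 32 bases before it, all on the strand of the gene, with both strands searched and no overlap between the matches. Of 27305 windows of 250 bases, 33% hold CCAAT and 11.1% hold TATAAA on either strand.

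CD69 is an early activation antigen of lymphocytes that keeps them in lymphoid tissue. It read 9.54, 9.08 and 8.97 on the TPCK arrays and 8.04, 8.39 and 7.63 on the Bay-11 arrays. The untreated arrays, at 9.59, 9.28 and 9.37, overlapped with the TPCK arrays and lay above every Bay-11 array. The difference was 1.17 ± 0.18 (SE, n = 3 per group; limma adjusted p = 0.00782), a 2.26-fold higher level, with -0.22 against control for TPCK and -1.39 for Bay-11. A second kept CD69 probe differed by 0.69. Without array 1 or 6 the adjusted p was up to 0.0591. The call was also lost without normalization between arrays (limma adjusted p = 0.0819) and on the 6 compared arrays alone. CD69 was called in 14 of 19 alternatives.

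ZNF101, NHLRC2 and AGO3 were also lower in the Bay-11 group than in untreated cells by their means, although only ZNF101 was called there. ZNF101, a zinc finger gene, read 7.02, 6.87 and 6.90 with TPCK and 5.84, 6.11 and 5.71 with Bay-11. Its difference was 1.04 ± 0.16 (SE, n = 3 per group; limma adjusted p = 0.00782), with 0.34 against control for TPCK and -0.70 for Bay-11 (limma adjusted p = 0.0449). NHLRC2 read 7.60, 6.97 and 7.09 with TPCK and 6.33, 6.01 and 6.17 with Bay-11, a difference of 1.05 ± 0.20 (SE, n = 3 per group; limma adjusted p = 0.0328). AGO3, an Argonaute protein of microRNA silencing, differed by 1.00 ± 0.20 (SE, n = 3 per group; limma adjusted p = 0.0437), while its second kept probe differed by 0.24. ZNF101 lost its call without array 1, 4 or 6 (adjusted p up to 0.0755), NHLRC2 without array 1, 3, 4, 5 or 6 (up to 0.256) and AGO3 without any 1 of the 6 (up to 0.284). Of 291 ZNF genes measured 2 were called higher and 0 lower, ZNF101 and ZNF800 (0.72 ± 0.14, SE, n = 3 per group; limma adjusted p = 0.0385), and 289 were not called, with a median of 0.018. With the replicate block, which called more genes in all, 7 of 200 ZNF genes were called higher and 2 lower.

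OTULIN, SERTAD1, RNU6ATAC and OR51I1 were above the untreated cells after TPCK. OTULIN is the deubiquitinase that takes apart the linear ubiquitin chains on which IKK activation is built. It read 10.24, 10.23 and 10.23 on the TPCK arrays and 9.35, 9.46 and 9.61 on the Bay-11 arrays. Bay-11 and untreated arrays, the latter at 9.41, 9.51 and 9.47, overlapped, and the difference between treatments was 0.76 ± 0.12 (SE, n = 3 per group; limma adjusted p = 0.00782). SERTAD1, a cofactor of E2F transcription and of the kinase CDK4, read 7.77, 7.37 and 7.22 with TPCK and 6.51, 6.35 and 6.72 with Bay-11. Its difference was 0.93 ± 0.15 (SE, n = 3 per group; limma adjusted p = 0.0107), with 0.82 against control for TPCK and -0.11 for Bay-11. OTULIN lost its call without array 1 or 4 (adjusted p up to 0.0624) and SERTAD1 without array 1, 4 or 5 (up to 0.0765).

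RNU6ATAC is the U6atac RNA of the minor spliceosome, which removes a rare class of introns. It read 8.26, 8.43 and 8.50 with TPCK, 7.62, 7.53 and 7.40 with Bay-11 and 7.06, 6.65 and 6.76 untreated. The 3 groups did not overlap and stood in the order untreated, Bay-11, TPCK. The difference between treatments was 0.88 ± 0.13 (SE, n = 3 per group; limma adjusted p = 0.00654), lost without array 6 (0.0579). Of 6 minor spliceosomal and other small nuclear RNAs measured it was the only one called, and the list's median was 0.052. OR51I1, an olfactory receptor gene, differed by 1.01 ± 0.18 (SE, n = 3 per group; limma adjusted p = 0.0232) and lost its call without array 3, 4, 5 or 6 (up to 0.116). RNASE10 was detected on 3 TPCK arrays and on none of the Bay-11 arrays, so its level was at least 1.51-fold higher after TPCK (limma adjusted p = 0.0328). The remaining called genes, named after their values were seen, were GRPR, a neuropeptide receptor, at 0.62 and the phosphatase gene DUSP28 at 0.63 (limma adjusted p = 0.0328 and 0.0385).

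Values on either side of the threshold were close. Just inside stood ZNF800, AGO3 and SNORA10, and just outside stood DUSP1 at 0.91 (limma adjusted p = 0.0512), HNRNPA0 at -0.84 (0.0557) and SNORD36C at -1.01 (0.0599). Counting the 23 called genes named by rule, leaving out array 1 or array 6 ended 16 calls each, array 4 ended 11, array 5 ended 8, array 3 ended 7 and array 2 ended 6. EBLN2, SNORD38A, SNORD54, SNORD73A and SNORA33 kept their calls in all 6 such fits, and none of the 23 changed sign in any alternative tried. SNORD73A and SNORA33 were not called under median centring (limma adjusted p = 0.0636 and 0.0692) or without normalization between arrays (0.198 and 0.253). SNORD54 was not called without normalization (limma adjusted p = 0.0819). EBLN2, SNORD38A and H3C10 were called under both of these scalings.

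Of 49 NF-kB target genes measured, CD69 was called higher, 0 were called lower and 48 were not called, with a median of -0.044 and 23 above 0. With the replicate block 2 of 45 were called higher and 1 lower, and on the 6 compared arrays alone 0 of 49 were called. The 95% interval of the difference lay within 1 log2 unit on either side of 0 for 45 of 49 (91.8%), beside 91.7% of all genes. NFKBIA, the gene of IkB-alpha and a direct NF-kB target, read 12.19, 12.15 and 11.81 with TPCK and 12.04, 11.96 and 11.81 with Bay-11. The groups overlapped, the difference was 0.11 with a 95% interval of -0.29 to 0.51, and against control TPCK was -0.40 and Bay-11 -0.51 with neither called. TNFAIP3, the gene of the feedback protein A20, differed by -0.37 (95% interval -0.84 to 0.10). NFKBIZ, the gene of a nuclear IkB protein, differed by -0.033 (-0.25 to 0.19). BCL2A1, a survival gene of the BCL2 family, differed by -0.15 (-0.59 to 0.29). CXCL8, the gene of the chemokine interleukin 8, read 6.28, 6.30 and 6.33 with TPCK and 6.0, 6.17 and 5.38 with Bay-11, which did not overlap, but its difference of 0.45 was not called (95% interval 0.058 to 0.84; limma adjusted p = 0.319). Under median centring the list's median was 0.18, beside 0.16 for all genes, so its sign depends on the scaling. Among 30 pathway components OTULIN was called higher, 0 were called lower, 29 were not called, and the median was -0.11.

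**Figure D3:**
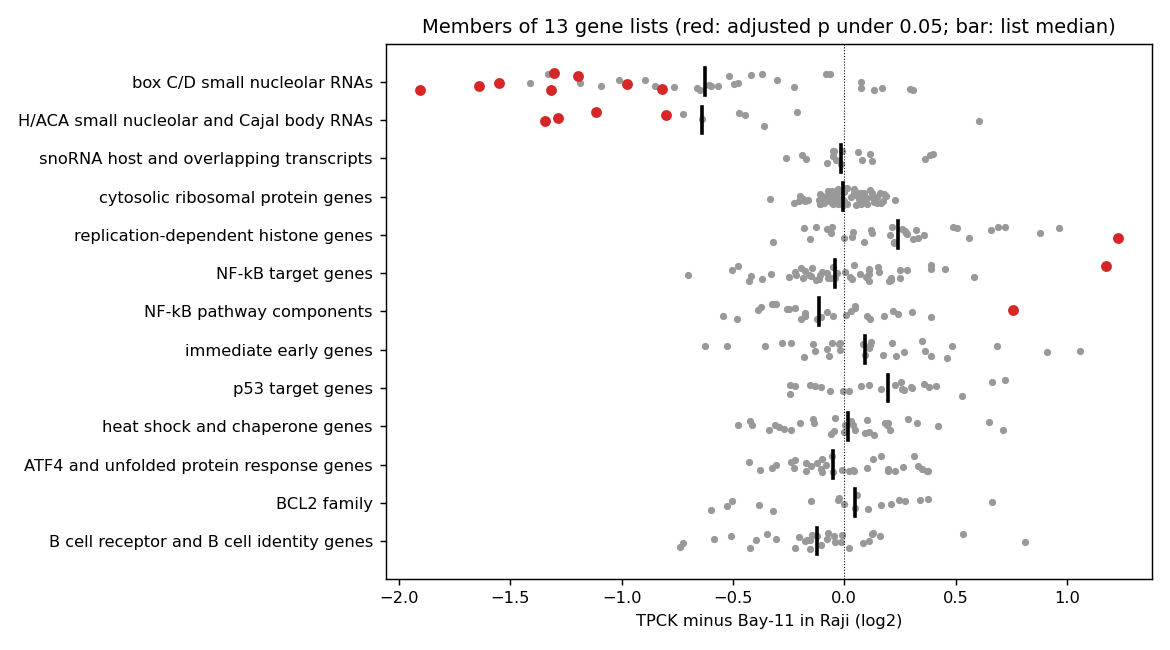
TPCK minus Bay-11 in Raji (horizontal axis, log2) for the measured members of 13 gene lists; each dot is 1 gene, red dots have an adjusted p under 0.05 and black bars are list medians. The bars of the small nucleolar RNA lists stand at -0.63 and -0.64, that of the histone genes at 0.24, and those of the NF-kB lists near 0.

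Immediate early genes, which cells switch on within minutes of a stimulus, gave 0 calls among 31 measured. Their median was 0.095, and 7 of 31 were higher with TPCK without overlap (12.9% over all genes). With the replicate block 3 of 28 were called higher and 0 lower. FOSB, a subunit of AP-1, read 8.77, 8.77 and 8.58 with TPCK and 8.08, 8.04 and 7.95 with Bay-11, below the untreated 9.80, 9.84 and 9.65 in both. The treated groups did not overlap, but the difference of 0.69 ± 0.16 (SE, n = 3 per group; limma adjusted p = 0.0940) was not called here and was called with the replicate block (adjusted p = 0.0358). DUSP1, a phosphatase that shuts down MAP kinases, read 7.40, 7.42 and 7.16 with TPCK and 6.46, 6.27 and 6.51 with Bay-11, just outside the threshold here and inside it with the replicate block (adjusted p = 0.0260). EGR1 differed by 0.48 (95% interval -0.022 to 0.99), ATF3 by 0.36 (-0.080 to 0.80) and JUN by -0.025 (-0.44 to 0.39). KLF6, at -0.021, and SGK1, at 0.12, had been called lower against control after both treatments, and their intervals of the difference between treatments were -0.43 to 0.39 and -0.17 to 0.41. SERTAD1 was the only call among 31 other short-lived regulators, and with the replicate block 2 of 28 were called higher and 1 lower.

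**Figure D4:**
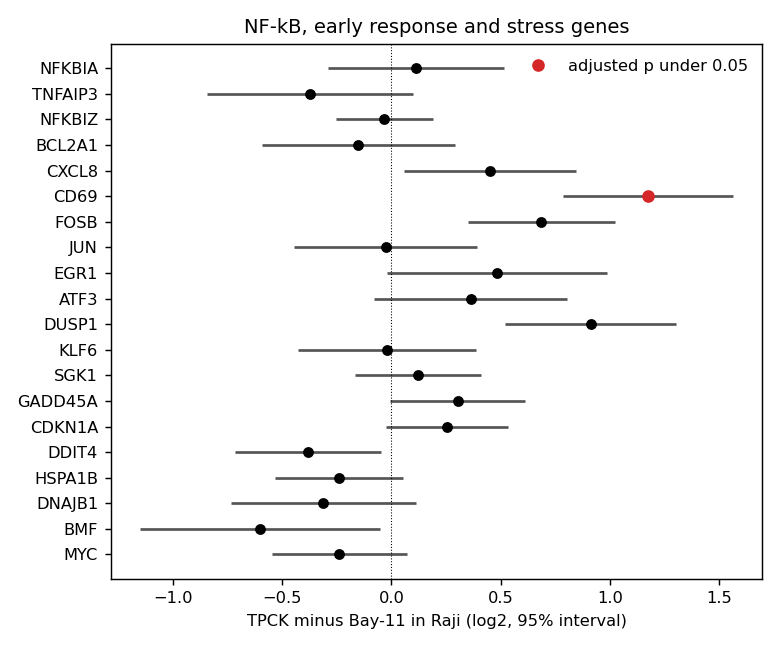
TPCK minus Bay-11 in Raji (horizontal axis, log2) with its 95% interval for 20 NF-kB, early response and stress genes; the red point, CD69 at 1.17, is the only one with an adjusted p under 0.05. The interval of NFKBIA runs from -0.29 to 0.51 and that of DUSP1 from 0.52 to 1.30.

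Damage and stress genes were not called in either direction. Of 24 p53 targets 0 were called, with a median of 0.20 and 16 above 0, and against control the medians were -0.17 for TPCK and -0.45 for Bay-11. CDKN1A, the p53-driven inhibitor of the cell cycle, differed by 0.25 (95% interval -0.023 to 0.53), and GADD45A, a damage-response gene, by 0.30 (-0.0065 to 0.61). The heat shock and chaperone list had 0 of 32 called and a median of 0.017, with HSPA1B, an inducible Hsp70, at -0.24 (-0.53 to 0.053) and its partner DNAJB1 at -0.31 (-0.73 to 0.11). Of 33 genes of the unfolded protein and ATF4 responses 0 were called, with DDIT4, an inhibitor of mTOR, at -0.38 (-0.72 to -0.046) and CHAC1, a glutathione-degrading enzyme, at 0.35 (-0.030 to 0.73). CHAC1 was near the detection limit, detected on 3 TPCK arrays, 1 Bay-11 array and no untreated Raji array. NRF2 targets and glutathione genes had 0 of 28 called and a median of 0.038, and HMOX1, the haem oxygenase gene, was not detected on any of the 6 arrays. Metallothioneins and zinc transporters had 0 of 18 called, and 1 of 15 lower with the replicate block.

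Cell death and growth genes gave 0 calls as well. The BCL2 family had 0 of 19 called, and BMF, a BH3-only death gene, read 6.28, 5.95 and 6.21 with TPCK and 6.83, 6.57 and 6.83 with Bay-11. Its difference of -0.60 ± 0.26 (SE, n = 3 per group; limma adjusted p = 0.335) was not called here and was called with the replicate block (adjusted p = 0.0405). Caspases and their regulators had 0 of 22 called with a median of 0.026. MYC, which the Burkitt translocation drives, differed by -0.24 (95% interval -0.55 to 0.072). RNA polymerase I and ribosome biogenesis genes had 0 of 35 called, and POLR1B, the second-largest subunit of that polymerase, read 6.08, 5.73 and 5.99 with TPCK and 7.19, 6.39 and 6.95 with Bay-11. Those arrays did not overlap and its difference of -0.91 ± 0.23 (SE, n = 3 per group; limma adjusted p = 0.115) was not called here and was called with the replicate block (adjusted p = 0.0377). B cell receptor and identity genes had 0 of 31 called and a median of -0.12. It was 0.090 under median centring and 0.14 without normalization, where the medians of all genes were 0.16 and 0.22. In both scalings 20 of the 31 genes lay below the median of all genes, beside 23 in the main fit. With the replicate block 1 of 28 of them was called higher. Proteasome subunits, interferon-stimulated, MHC class II, hypoxia-response and cholesterol synthesis genes had 0 calls among 33, 27, 15, 26 and 18 measured.

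The same contrast in DG75, on arrays that the Raji contrast does not use, called 20 genes (0.187%), 3 higher (0.028%) and 17 lower (0.159%). At an unadjusted p under 0.05 there were 1136 genes (10.6%). Of the 29 genes called in Raji 11 were also called in DG75, all in the same direction, which is 37.9% of the Raji calls and 55% of the DG75 calls. Of the 17 genes called lower in DG75 16 were small nucleolar RNAs. SNORD38A differed by -1.89 in DG75 (limma adjusted p = 6.63e-07), SNORD14A by -2.20 (0.000200), SNORD100 by -1.76 (0.000168), SNORA33 by -1.13 (0.000353) and EBLN2 by -1.57 (0.0189). All 12 small nucleolar RNAs called lower in Raji lay below 0 in DG75, beside 6248 of all 10697 genes. So did 33 of 36 box C/D RNAs and 9 of 11 H/ACA or Cajal body RNAs. Of the 12, SNORD54 was detected on no TPCK array of DG75 and SNORD14D on only 1. Box C/D RNAs had 11 of 36 called lower in DG75 with a median of -0.65, and H/ACA and Cajal body RNAs 5 of 11 with a median of -0.70. RNU6ATAC was higher in both lines, at 1.18 in DG75 (limma adjusted p = 0.000274). Leaving out array 7 left 12 calls in DG75.

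Of the 13 genes called higher in Raji 10 lay above 0 in DG75, beside 4449 of all 10697 genes. CD69 differed by 0.089 in DG75, OTULIN by 0.19 and H3C10 by 0.42. The count of 10 is of signs alone, since OR51I1 and GRPR were not detected on any TPCK or Bay-11 array of DG75. No difference between the lines passed the test: the contrast of contrasts called 0 of 10697 genes (0%) with limma, and 902 (8.43%) had an unadjusted p under 0.05. For CD69 the difference between lines was 1.08 (limma adjusted p = 0.586). Across genes the Raji and DG75 differences correlated with 0.21 over all 10697 genes and with 0.80 over the 47 small nucleolar and Cajal body RNAs. Genes are not independent replicates, and the points share probes and the estimate of spread.

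**Figure D5:**
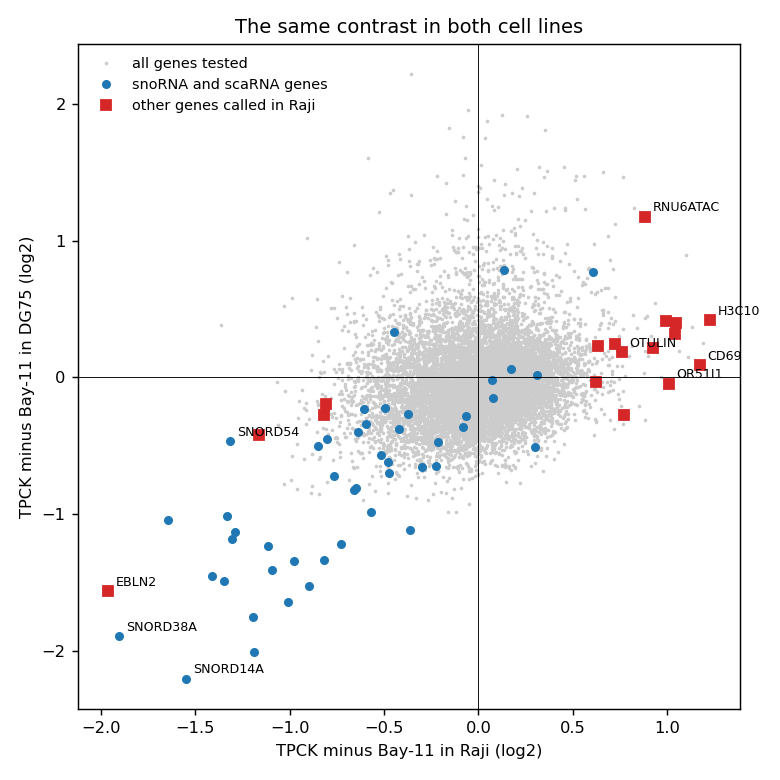
TPCK minus Bay-11 in Raji (horizontal axis, log2) against the same difference in DG75 (vertical axis, log2) for all genes tested (grey), small nucleolar and Cajal body RNAs (blue) and the other genes called in Raji (red squares). SNORD38A lies at -1.90 and -1.89, EBLN2 at -1.96 and -1.57, RNU6ATAC at 0.88 and 1.18, and CD69 at 1.17 and 0.089. OR51I1 was not detected in DG75 on the arrays plotted.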

How the data were processed

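Per the file headers, the main deposited table holds raw bead signals as log2 values (49576 probes), neither background-subtracted nor normalized. A detection p-value per probe stands beside each signal in the deposited table, per the file headers. RNA was isolated with Trizol and RNeasy and labelled with an Ambion MessageAmp kit, per the labels' protocols. For scanner software and build, neither is given in the sources used here. Arrays carry the number that opens their column name, and every sample column was mapped.

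Signals were background-corrected with normexp from detection p-values (offset 16) and then quantile normalized (neqc, limma 3.58.1, R 4.3.3). Probes with a detection p under 0.01 on at least 3 of 18 arrays were kept (17652). Platform annotation gave 1 symbol for 14195 of them and no single symbol for 3457. Each of 10697 genes was represented by its brightest kept probe on average. RefSeq's GRCh38.p14 gene table served for which genes contain which, without regard to strand. Group means were fitted with lmFit and eBayes over 18 arrays in 6 groups (12 residual and 4.26 prior degrees of freedom), and p-values were adjusted by Benjamini-Hochberg. A probe undetected on all arrays of a group is given as a bound. With 3 arrays per group, the number of arrays limits the precision. The script was tested on simulated data.

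Members and gene lists were chosen with earlier results of these data known. Genes named by rule were the 10 highest and 10 lowest called differences, excluding placeholder symbols and overlapping groups, up to 4 called members of each list, and 26 further genes picked with earlier results known.

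The authors' second table holds log2 values centred near 0, of unknown centring and normalization, with column medians from -0.11 to 0.15 and replicate numbers in its labels. Deviations of same-numbered TPCK and Bay-11 samples from their group means correlated with 0.137, 0.124 and 0.232 across 8379 genes. Those of differently numbered samples correlated with -0.135 to 0.024. Deviations cancel out within a group, so positive values for equal numbers push the others down. On these values, which the block also tests, samples with the same number were treated as pairs. The labels state no pairing. The column medians also followed the replicate number (0.057, 0.154 and -0.029 for TPCK, 0.087, 0.146 and -0.051 for Bay-11). Whether the block removes an offset of processing was not tested. Alternatives were median centring, no normalization, no background correction, no or another filter, probe means, fewer arrays, array weights, each array left out, and the deposited values.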

Additional observations from a re-analysis of the deposited data

Results flagged for a closer look

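The probes without a gene name were outside the comparisons above. In a fit over all 17652 kept probes, 66 were called between TPCK and Bay-11 in Raji, and 33 of these had no single gene symbol (17 higher, 16 lower). The largest differences of the whole array were among them. Probe ILMN_1776125 read 10.11, 10.62 and 10.63 on the TPCK arrays, 6.14, 5.88 and 5.64 on the Bay-11 arrays and 6.47, 6.76 and 6.99 on the untreated Raji arrays. It was 4.56 ± 0.26 higher with TPCK than with Bay-11 on the log2 scale (SE, n = 3 per group; limma adjusted p = 1.24e-07), a 23.6-fold difference, and 3.71 above untreated cells. In DG75 the same contrast gave 4.77. Probe ILMN_1696160 read 8.0, 8.33 and 8.60 with TPCK, was not detected on any Bay-11 array and read 6.50, 6.04 and 6.66 untreated, which put TPCK 1.91 above untreated cells (limma adjusted p = 0.00160). Both probes stood out because they lie outside the named genes and were above the control arrays after TPCK.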

How the results depend on the processing

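None of the called named genes changed sign under any alternative. Of the uncalled named genes 6 did so under median centring or no normalization (BCL2A1, JUN, KLF6, MYC, NFKBIZ and HSPA1B), JUN also with array weights or without array 1 or 6, and KLF6 also without array 3 or 4. For the Raji count of 29 calls, median centring gave 8, no normalization between arrays 3, the 9 Raji arrays alone 160 (45 higher, 115 lower), all arrays but DG75 arrays 7 and 10 67 (29 higher, 38 lower), array weights 686 (320 higher, 366 lower) and the deposited processed values 243 (34 higher, 209 lower). All 29 calls were shared by the fits on 9 Raji arrays, without arrays 7 and 10 and with array weights, and 22 by the deposited values. Without a block the deposited values of the 6 samples, an alternative chosen after seeing the data, gave 50, and with the replicate block, which pairs same-numbered samples, 283. The block called FOSB, DUSP1, BMF, SNORD46 and POLR1B and ended no call of a named gene that the deposited values cover. H3C10, RNASE10, SNORD54 and SNORD73A are not covered. Leaving out 1 array gave 7 to 24 calls in Raji and 12 to 30 in DG75. For the DG75 count of 20, median centring gave 8 and no normalization 5. The difference between lines stayed at 0 calls in each alternative run. Among values of named genes in these alternatives 711 kept their side of the threshold, 119 lost it and 23 gained it. All 119 losses fell on called named genes, since the uncalled genes, which are also counted in the 711, had no call to lose. Array 10, of DG75 Bay-11, had the lowest array weight, 0.169. The cause was not tested. Signal limits SNORD54, RNASE10, SNORD73A, H3C10 and CHAC1 among the named genes, which were near or below detection in at least 1 Raji group.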
